A study of Mus musculus with 16 samples.

Results

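Calcium channels and carriers of mitochondria and lysosomes were followed through 9 genes, taken by name from the 20730 genes of the deposited tables, and all 9 were found. 6 act at mitochondria: Mcu, Micu2, Letm1, Vdac1, Vdac2 and Vdac3. 3 act at lysosomes and endosomes: Tpcn1, Tpcn2 and Mcoln1. The genes were taken by name and not by a measured value, but with earlier results of these data known. Each of the 9 passed the filter on low counts in every comparison. The libraries came from the whole striata of 8 adult C57BL/6N mice. Every mouse had received a RiboTag AAV, a virus that makes astrocytes carry the ribosomal protein Rpl22 with a hemagglutinin (HA) tag. A further AAV encoded a control protein in 4 mice (control mice) or hPMCA2w/b in 4 mice (PMCA mice). hPMCA2w/b is a form of a human calcium pump of the plasma membrane, which the series describes as suppressing calcium signals. Control mice therefore also carried both a tagged ribosomal protein and a control protein encoded by a further AAV. From each mouse, RNA of the cleared lysate (input) and RNA bound to the precipitated HA-tagged ribosomes (IP) were sequenced, giving 4 groups of 4 libraries. The sources used here give neither the promoters of the viruses nor the nature of the control protein.

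Mitochondria take up calcium in 2 steps. The VDAC proteins are the pores of the outer membrane and pass ions and metabolites, calcium among them. At the inner membrane, Mcu forms the pore of the calcium uniporter, and Micu2 helps to gate that pore according to the calcium outside. Letm1 is an inner membrane protein that exchanges cations for protons. Lysosomes and endosomes hold calcium as well, and release it through the two-pore channels Tpcn1 and Tpcn2 and through Mcoln1 (TRPML1), whose loss causes a lysosomal storage disease. In astrocytes, calcium from mitochondria contributes to local signals in the fine processes.

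On the GRCm38.p6 assembly, which has the coordinates of mm10, all 9 are protein-coding genes in the RefSeq annotation. Mcu lies on chromosome 10 from 59446984 to 59617409, Micu2 on chromosome 14 from 57916280 to 57999296 and Letm1 on chromosome 5 from 33739673 to 33782717. Vdac1 lies on chromosome 11 from 52360851 to 52389397, Vdac2 on chromosome 14 from 21831561 to 21845879 and Vdac3 on chromosome 8 from 22577075 to 22593813. Tpcn1 lies on chromosome 5 from 120534157 to 120588678, Tpcn2 on chromosome 7 from 145181633 to 145284011 and Mcoln1 on chromosome 8 from 3500519 to 3515232. The 3 VDAC genes are thus unlinked paralogs.

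Promoter sequences from RefSeq (GRCm38.p6) matched 6 of the 9 genes, with 7 records because Vdac1 has 2 start sites. Tpcn1, Vdac2 and Vdac3 had no record and were not searched. Many lysosomal genes carry the motif CACGTG, the core of the element that the transcription factor Tfeb binds. The lysosomal channels with a record are shown for that reason. The 250 bases before the start site were searched for CACGTG, which reads the same on both strands. Of the 7 records, only that of Mcoln1 held it, in 2 copies whose first bases lie at -71 and -45 from the start site. Among 32851 promoters of this length, 6.02% held at least 1 copy and 0.429% held 2 or more. Below are the promoter of Mcoln1, chr8:3500269-3500518 on the plus strand, with CACGTG in capitals, and that of Tpcn2, chr7:145284012-145284261 on the minus strand, which has no copy. Both are written 5′ to 3′ along the gene's own strand.
Mcoln1: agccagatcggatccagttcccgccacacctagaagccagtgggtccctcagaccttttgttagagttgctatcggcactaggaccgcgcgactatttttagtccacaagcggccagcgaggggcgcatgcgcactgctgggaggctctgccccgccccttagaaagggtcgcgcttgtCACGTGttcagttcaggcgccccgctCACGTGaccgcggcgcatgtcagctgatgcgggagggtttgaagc
Tpcn2: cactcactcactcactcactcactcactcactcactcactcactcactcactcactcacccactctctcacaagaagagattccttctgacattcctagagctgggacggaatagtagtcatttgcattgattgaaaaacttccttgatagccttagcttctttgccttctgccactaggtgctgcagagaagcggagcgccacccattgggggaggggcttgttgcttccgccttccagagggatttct

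Libraries held 32.3 to 40.9 M reads (inputs) and 46.8 to 58.5 M reads (IP). Levels are given as log2 CPM (counts per M reads, after the authors' scaling). The sources call the mice separate animals, so the spread between replicates is the spread between mice. Cell type markers were compared between IP and input in control mice by limma (adjusted p under 0.05). Astrocyte markers were higher in IP for 10 of 10 genes (median log2 difference 3.30). Microglia markers were lower for 10 of 10 (median -5.54) and endothelial markers for 7 of 7 (median -4.13). Striatal projection neuron markers were lower for 8 of 8 (median -1.72). Of 9 neuronal markers 2 were higher and 6 lower (median -0.66), of 5 mural markers 2 and 3 (median -2.13). Of 8 oligodendrocyte markers 4 were higher and 1 lower (median 0.39). Over all 16072 genes tested, 39.1% were higher in IP and 38.4% were lower. Rpl22, the tagged gene, checks the precipitation: in control mice it stood at 7.60 ± 0.14 log2 CPM in input and 9.80 ± 0.15 in IP (SD, n = 4 each). In PMCA mice Rpl22 stood at 6.72 ± 0.086 and 8.11 ± 0.11, so it was lower in PMCA than in control mice in both fractions, by 0.88 and 1.69 on the log2 scale (limma, adjusted p = 0.000489 and 1.92e-05). The pump and the lower Rpl22 level went together in every mouse and cannot be told apart. Animal numbers fall in a lower set (control 1 to 3, PMCA 1 and 2) and a higher set (control 4, PMCA 3 and 4). What the sets stand for is not given, and the title and the source name of control 4 disagree on its animal number.

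Of the 9 channel genes, 6 were more abundant on the tagged astrocyte ribosomes than in the lysate of control mice: Mcu, Micu2, Letm1, Vdac2, Vdac3 and Tpcn1. None was lower. Tpcn1 stood far above the rest, with 4.21-fold more in IP, while Letm1 and Micu2 differed by 1.64-fold and 1.62-fold and Vdac1 hardly at all. Large shares of all genes differ between the fractions, so these counts stand against a high background: 39.1% of 16072 genes were higher in IP and 38.4% were lower (limma on log2 CPM, Benjamini-Hochberg adjusted p under 0.05). The median difference was 0.17 over the 9 channel genes and -0.0025 over all genes tested. In these bulk samples, fewer cells of a type and less RNA per cell cannot be told apart.

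Among the uniporter genes, the gatekeeper showed the larger difference. Micu2 in control mice 1 to 4 was 4.79, 4.76, 4.60 and 4.74 log2 CPM in input and 5.28, 5.54, 5.41 and 5.43 in IP. Every IP library was above every input library, and the difference was 0.69 (SE 0.070, limma adjusted p = 4.79e-06). Mcu was 5.17, 5.17, 5.08 and 5.12 in input against 5.33, 5.39, 5.24 and 5.22 in IP. The Mcu groups again did not overlap, but the difference was only 0.16 (SE 0.057, limma adjusted p = 0.0261). That call was lost without control mouse 1, 2 or 3 and with 1 spread shared by all 16 libraries (adjusted p = 0.115).

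Letm1, the cation and proton exchanger, was 6.38, 6.25, 6.26 and 6.36 log2 CPM in the control inputs and 6.96, 7.08, 7.0 and 7.07 in the IP libraries. The fractions were clearly apart in every mouse, by 0.59 to 0.83 within mice, with a fitted difference of 0.72 (SE 0.053, limma adjusted p = 4.17e-07).

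The 3 outer membrane pores did not share 1 pattern. Vdac1 was 8.66, 8.69, 8.67 and 8.59 in the control inputs and 8.72, 8.68, 8.62 and 8.59 in IP, and the fractions overlapped (difference 0.0034, 95% interval -0.12 to 0.13, limma adjusted p = 0.958). Vdac2 was 7.37, 7.46, 7.37 and 7.26 in input and 7.84, 7.91, 7.95 and 7.84 in IP, with no overlap (difference 0.52, SE 0.057, limma adjusted p = 9.33e-06). Vdac3 was 6.26, 6.34, 6.32 and 6.10 in input and 6.49, 6.39, 6.42 and 6.40 in IP. All Vdac3 IP libraries were above the inputs, by 0.17 (SE 0.062, limma adjusted p = 0.0275), a call that was lost without control mouse 1, 3 or 4. The intervals of the Vdac1 and Vdac2 differences do not meet (upper bound 0.13 against lower bound 0.39).

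Of the lysosomal channels, Tpcn1 was 4.72, 4.56, 4.50 and 4.65 log2 CPM in the control inputs and 6.67, 6.73, 6.75 and 6.57 in IP. Within mice the IP library exceeded its input by 1.92 to 2.25, and the fitted difference was 2.07 (SE 0.065, limma adjusted p = 8.96e-10). In this comparison 924 of 16072 genes (5.75%) had a larger difference. Tpcn2, its relative, was far scarcer, with 86 to 198 reads in each of the 16 libraries. Its levels were 1.25, 1.27, 0.97 and 1.96 in the control inputs and 0.93, 1.58, 1.60 and 1.83 in IP. These overlapped widely (difference 0.12, 95% interval -0.42 to 0.66, limma adjusted p = 0.656), so a difference of the size seen for Tpcn1 lies outside the interval. Mcoln1 was 5.12, 5.26, 5.21 and 5.16 in input and 5.04, 5.02, 5.17 and 5.15 in IP, again with overlap (difference -0.098, 95% interval -0.23 to 0.034, limma adjusted p = 0.153). Within mice, the Mcoln1 IP library was below its input in 4 of 4 control mice, by -0.25 to -0.016.

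**Figure D1:**
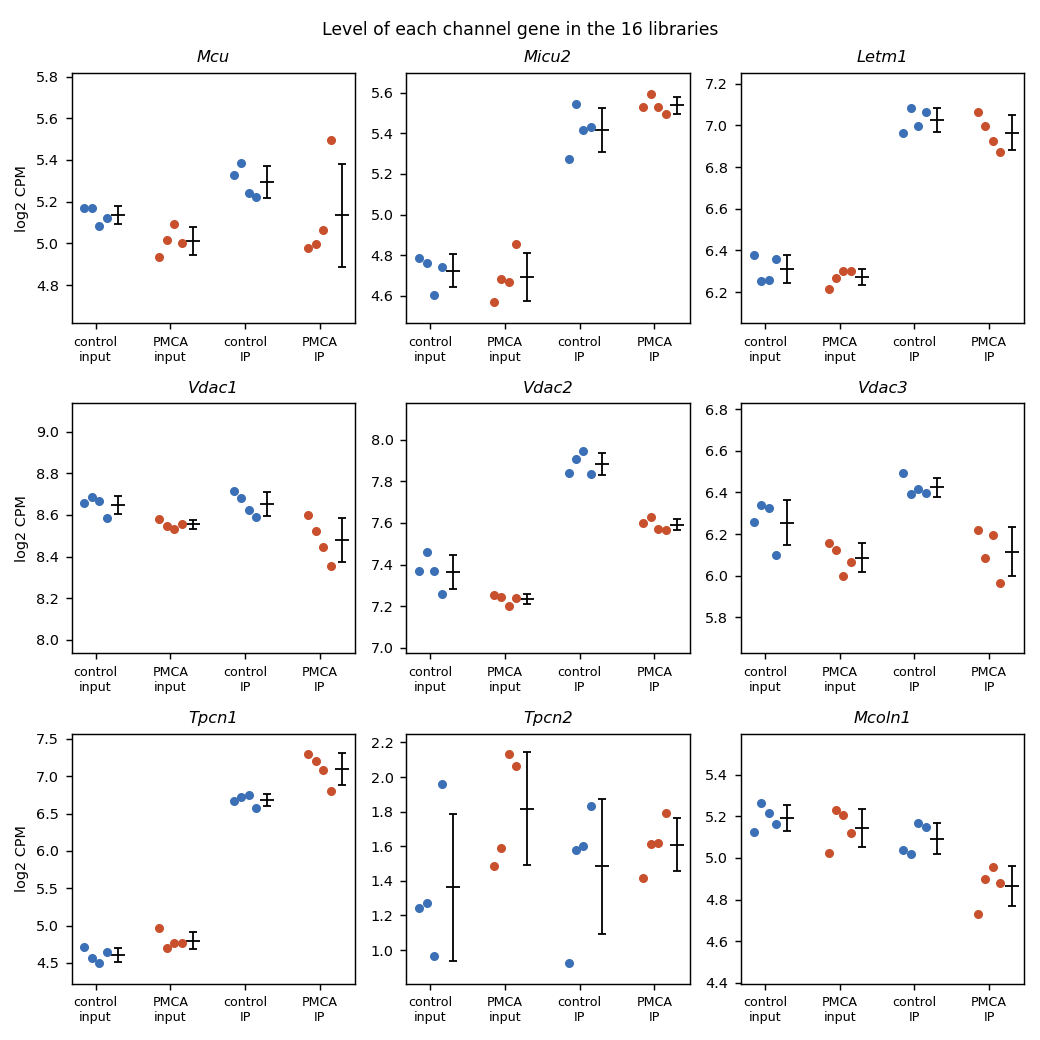
Level of each channel gene (log2 CPM, vertical axis, with a scale of its own in each panel) in the 4 groups; points are the 4 mice in replicate order and bars the mean ± SD. IP lies above input for Tpcn1, Micu2, Letm1 and Vdac2 in both treatments, and PMCA IP lies below control IP for Vdac2, Vdac3 and Mcoln1.

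The scaling between libraries bears on the small differences. By the authors' scaling, input totals were multiplied by 1.10 to 1.12 and IP totals by 0.891 to 0.918. With total reads in their place, the median over all genes moved from -0.0025 to -0.28 in control mice, and the calls changed from 6285 higher and 6172 lower to 4493 higher and 8389 lower. Tpcn1, Letm1, Micu2 and Vdac2 stayed higher in control IP with total reads (differences 1.80, 0.44, 0.42 and 0.24), whereas Mcu turned to -0.12 and Vdac3 to -0.11, neither past the threshold. Vdac1 turned to -0.27 and Mcoln1 reached -0.37, both past the threshold (limma adjusted p = 0.000887 and 0.000156).

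In PMCA mice 4 of the 9 channel genes, Tpcn1, Micu2, Letm1 and Vdac2, were higher in IP than in input, and Mcoln1 was lower. Over all genes, 37.4% of 16345 were higher and 39.3% were lower. The median difference was 0.12 over the 9 channel genes and -0.041 over all genes. PMCA and control mice were fitted separately here, with no library in common.

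Tpcn1 was 4.96, 4.69, 4.77 and 4.77 log2 CPM in the PMCA inputs and 7.29, 7.21, 7.08 and 6.80 in IP, a difference of 2.30 (SE 0.10, limma adjusted p = 1.05e-08), or 4.91-fold. Micu2 was 4.57, 4.68, 4.67 and 4.85 in input and 5.53, 5.59, 5.53 and 5.49 in IP, a difference of 0.85 (SE 0.065, limma adjusted p = 7.42e-07). Letm1 was 6.22, 6.27, 6.30 and 6.30 in input and 7.07, 7.0, 6.93 and 6.87 in IP, a difference of 0.69 (SE 0.053, limma adjusted p = 6.92e-07). In these 3 genes every IP library was above every input library. Vdac2 was 7.25, 7.24, 7.20 and 7.24 in input and 7.60, 7.63, 7.57 and 7.57 in IP. Its difference was 0.36 (SE 0.041, limma adjusted p = 1.74e-05), which fell to 0.051 with total reads (adjusted p = 0.283).

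Mcoln1 was 5.03, 5.23, 5.20 and 5.12 in the PMCA inputs and 4.73, 4.90, 4.95 and 4.88 in IP. The IP library was lower than its input in each of the 4 mice, as in the control mice, with a fitted difference of -0.28 (SE 0.068, limma adjusted p = 0.00346). The other 4 genes overlapped between the fractions. Mcu differed by 0.12 (95% interval -0.12 to 0.36), Vdac1 by -0.075 (-0.21 to 0.054), Vdac3 by 0.030 (-0.12 to 0.18) and Tpcn2 by -0.21 (-0.58 to 0.17). With total reads the median over all genes moved from -0.041 to -0.35 and the calls from 6121 higher and 6430 lower to 4294 higher and 8898 lower. Mcu then turned to -0.18, not past the threshold (limma adjusted p = 0.131). Vdac3 turned to -0.28 and passed, as did Vdac1 at -0.38 and Tpcn2 at -0.51.

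**Figure D2:**
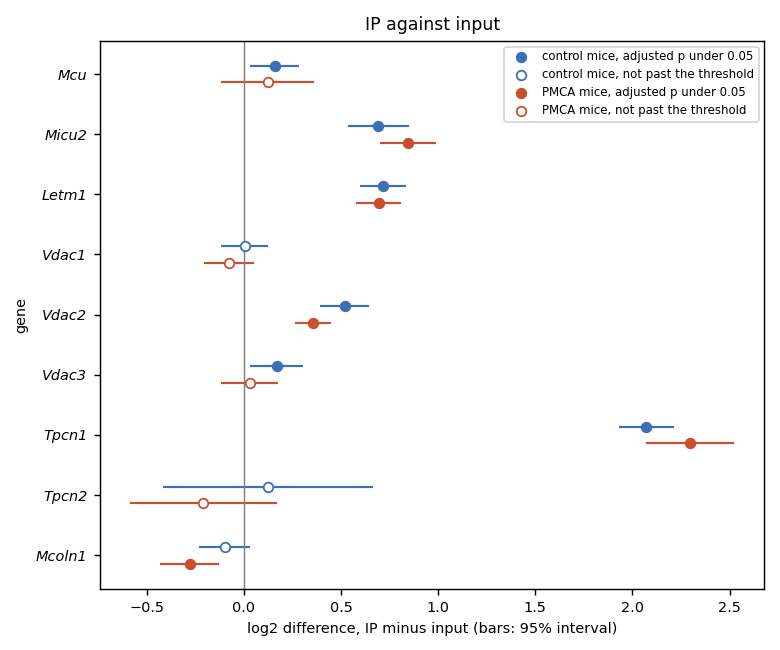
Difference between IP and input (log2, horizontal axis) for each channel gene in control and in PMCA mice, with 95% intervals; filled points passed the threshold. Tpcn1 lies at 2.07 and 2.30, Letm1, Micu2 and Vdac2 between 0.36 and 0.85, and the others within 0.28 of 0.

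Between PMCA and control mice, the IP libraries compare the RNA on the tagged ribosomes with and without hPMCA2w/b. Calcium signals themselves are not measured by these libraries. 4 of the 9 channel genes changed. Tpcn1 rose 1.33-fold, while Vdac2, Vdac3 and Mcoln1 fell, by 1.22-fold, 1.24-fold and 1.17-fold. Mcu, Micu2, Letm1, Vdac1 and Tpcn2 did not pass the test. Over all 15748 genes tested, 9.54% were higher and 10.1% were lower. The median difference was -0.16 over the channel genes and -0.012 over all genes.

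Vdac2 was 7.84, 7.91, 7.95 and 7.84 log2 CPM in the control IP libraries and 7.60, 7.63, 7.57 and 7.57 in the PMCA IP libraries. The lowest control library stood above the highest PMCA library, and the difference was -0.29 (SE 0.055, limma adjusted p = 0.00748). It was -0.28 within the lower animal numbers and -0.27 within the higher ones, and it passed the threshold in all 16 alternatives (adjusted p = 0.000354 to 0.0402).

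Vdac3 was 6.49, 6.39, 6.42 and 6.40 in control IP and 6.22, 6.08, 6.20 and 5.96 in PMCA IP, also without overlap (difference -0.31, SE 0.069, limma adjusted p = 0.0145). Within the animal number sets it was -0.28 and -0.32. It was lost in 1 of 16 alternatives, with the number set as a block and control 4 placed by its source name (-0.27, adjusted p = 0.0727). Vdac1 was 8.72, 8.68, 8.62 and 8.59 in control IP and 8.60, 8.52, 8.44 and 8.36 in PMCA IP. The highest PMCA library reached the range of the controls, and the difference of -0.17 did not pass (95% interval -0.33 to -0.017, limma adjusted p = 0.108). It passed in 1 of 16 alternatives, with 1 spread shared by all 16 libraries (adjusted p = 0.0245).

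The inner membrane genes did not pass the test. Mcu was 5.33, 5.39, 5.24 and 5.22 in control IP and 4.98, 5.0, 5.06 and 5.50 in PMCA IP, so 3 of 4 PMCA libraries lay below all controls and PMCA 4 lay above them. The difference was -0.16 (SE 0.11, 95% interval -0.41 to 0.088, limma adjusted p = 0.336), and without PMCA 4 it was -0.28 (adjusted p = 0.0141). Within the lower animal numbers it was -0.33 and within the higher ones 0.057. Micu2 averaged 5.42 ± 0.11 (control IP) and 5.54 ± 0.041 (PMCA IP; SD, n = 4 each; difference 0.12, 95% interval -0.030 to 0.27). Letm1 stood at 7.03 ± 0.057 and 6.97 ± 0.085 (difference -0.062, 95% interval -0.20 to 0.077), and both pairs of groups overlapped.

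The lysosomal channels moved in different directions. Tpcn1 was 6.67, 6.73, 6.75 and 6.57 in control IP and 7.29, 7.21, 7.08 and 6.80 in PMCA IP. All 4 PMCA libraries were above all controls, with PMCA 4 closest to them (difference 0.42, SE 0.10, limma adjusted p = 0.0197). The call was lost without PMCA 1 (0.35, adjusted p = 0.0508), PMCA 2 (0.38, adjusted p = 0.0561) or PMCA 3 (0.42, adjusted p = 0.0504), and the difference was 0.53 and 0.37 within the number sets. Mcoln1 was 5.04, 5.02, 5.17 and 5.15 in control IP and 4.73, 4.90, 4.95 and 4.88 in PMCA IP. These did not overlap either (difference -0.23, SE 0.071, limma adjusted p = 0.0472), but the call was lost without any 1 of the 8 mice (adjusted p = 0.0501 to 0.120). It was also lost without the filter (adjusted p = 0.0539) and with the number set as a block by source name (adjusted p = 0.0671), while the direction was kept in all 16 alternatives. Tpcn2 stood at 1.48 ± 0.39 and 1.61 ± 0.15 (SD, n = 4 each), and the interval of its difference was -0.30 to 0.55. That interval spans changes of the size seen for Mcoln1 in both directions, and of the size seen for Tpcn1 only as a rise.

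Cell type markers moved with these differences. Over all 15748 genes tested in IP, 9.54% were higher in PMCA mice and 10.1% were lower. In PMCA IP, 4 of 10 astrocyte markers were higher and 0 lower (median 0.42), and their summed level was 46545 to 55135 CPM against 34469 to 45593 in control IP. Of the neuronal markers 7 of 9 were lower (median -0.51), with a summed level of 1957 to 2219 CPM against 2505 to 3275. Microglia markers were higher for 5 of 10 (median 0.88), at summed levels of only 45.6 to 93.6 CPM against 24.8 to 38.6. Endothelial markers were higher for 3 of 7 (median 0.65; summed level 9.80 to 14.96 CPM against 7.77 to 9.39). Of the mural markers 1 of 5 was higher and 2 lower (median -0.66), while their summed level was 88.8 to 101 CPM against 73.6 to 83.2. Of the striatal projection neuron markers 1 of 8 was lower, and 0 of 8 oligodendrocyte markers passed. No marker on these lists was at 0 reads throughout a group. The part of these markers, and of Rpl22, in the channel gene differences was not tested.

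In the inputs, 0 of the 9 channel genes passed the threshold between PMCA and control mice by limma, against 0.442% of all 16306 genes. At an unadjusted p under 0.05, 5 of the 9 did: Mcu, Vdac1, Vdac2, Vdac3 and Tpcn1. Over all 16306 genes, 3152 did so at that unadjusted threshold. The median difference was -0.047 over the channel genes and -0.0061 over all genes. Vdac2 was 7.37, 7.46, 7.37 and 7.26 in the control and 7.25, 7.24, 7.20 and 7.24 in the PMCA inputs, all below (difference -0.13, SE 0.044, limma adjusted p = 0.160). Vdac1 was also lower in each PMCA input, by -0.094 (SE 0.034, limma adjusted p = 0.182). Vdac3 differed by -0.17 (SE 0.058, adjusted p = 0.163), Mcu by -0.13 (SE 0.050, adjusted p = 0.213) and Tpcn1 by 0.19 (SE 0.070, adjusted p = 0.182), each with overlapping groups. Astrocyte markers were higher in the PMCA inputs for 2 of 10 (median 0.20), and their summed level of 3831 to 4093 CPM did not overlap the 3342 to 3446 CPM of the control inputs. Of the markers on the other 6 lists, 0 passed in the inputs. The part of the astrocyte markers in these differences was not tested.

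Control 4 weighed on the inputs. Its Vdac3 (6.10) was the lowest of the control inputs and its Tpcn2 (1.96) the highest. Without it Vdac2 (-0.16, limma adjusted p = 0.0316), Vdac3 (-0.22, adjusted p = 0.0219) and Tpcn2 (0.66, adjusted p = 0.0483) passed, and the number of genes called rose from 72 to 1352. Tpcn2 itself was 1.49, 1.59, 2.13 and 2.06 in the PMCA inputs against 1.25, 1.27, 0.97 and 1.96 in the controls, with a difference of 0.46 (95% interval -0.030 to 0.94, limma adjusted p = 0.285). Micu2 (-0.032), Letm1 (-0.039) and Mcoln1 (-0.047) were closest to 0, and the intervals of Letm1 and Mcoln1 lie within -0.17 to 0.079.

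**Figure D3:**
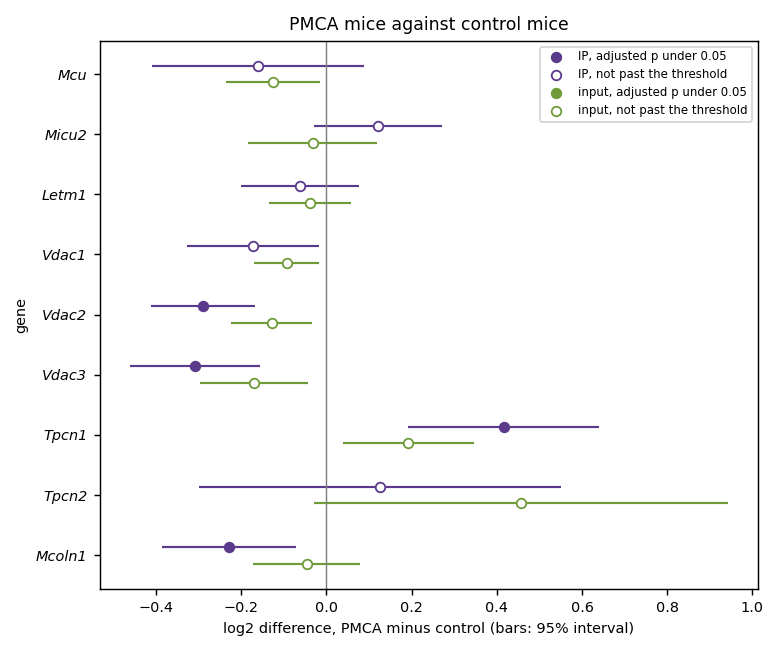
Difference between PMCA and control mice (log2, horizontal axis) for each channel gene in IP and in input, with 95% intervals; filled points passed the threshold. Vdac2, Vdac3 and Mcoln1 in IP lie at -0.29, -0.31 and -0.23 and Tpcn1 in IP at 0.42, and no input value passed.

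Whether the pump's effect differed between IP and input was fitted over all 16 libraries, and 0 of the 9 channel genes passed by limma (2.03% of 16673 genes did). At an unadjusted p under 0.05, 2711 of the 16673 genes did, and 1 of the 9 channel genes. That was Vdac2, whose effect differed by -0.16 between IP and input (SE 0.067, adjusted p = 0.234). For Tpcn1 the effects differed by 0.22 (95% interval -0.045 to 0.49), for Mcoln1 by -0.18 (-0.37 to 0.0060) and for Vdac3 by -0.14 (-0.33 to 0.054). The calls in IP and their absence in input are thus not shown to differ for these genes. Within mice, IP exceeded input for Vdac2 by 0.45 to 0.58 in control mice and by 0.33 to 0.38 in PMCA mice, which is the difference the fit describes.

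For 4 of the 9 channel genes, Tpcn1, Vdac2, Micu2 and Letm1, both IP means were above both input means, and for Vdac1, Vdac3 and Mcu both control means were above both PMCA means. Tpcn1 ranked PMCA IP, control IP, PMCA input and control input from highest to lowest, and the neighbouring inputs overlapped. Vdac2 ranked control IP, PMCA IP, control input and PMCA input, with no overlap between any neighbours. Micu2 and Letm1 had both IP groups above both inputs, with overlap within each fraction. Vdac3 ranked control IP (6.42 ± 0.046), control input (6.26 ± 0.11), PMCA IP (6.12 ± 0.12) and PMCA input (6.09 ± 0.069; SD, n = 4 each), and only control IP stood clear of its neighbour. Mcu ranked control IP (5.29 ± 0.077), control input (5.14 ± 0.043), PMCA IP (5.13 ± 0.25) and PMCA input (5.01 ± 0.066), with overlap among the lower 3. The Mcu range in PMCA IP (4.98 to 5.50) also took in that of control IP (5.22 to 5.39). Vdac1 and Tpcn2 overlapped between most neighbours, and for Mcoln1 PMCA IP (4.87 ± 0.096) was the group that lay apart from the other 3.

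Other genes of mitochondrial calcium handling went in both directions between the fractions: of 16 genes, 5 were higher and 6 lower in control IP, with a median of -0.087. Over all genes in control mice, 39.1% were higher in IP and 38.4% were lower. The sodium-calcium exchanger Slc8b1, which carries calcium out of mitochondria, was higher by 2.20 (SE 0.099, limma adjusted p = 8.64e-09), and the uniporter regulator Mcur1 by 2.15 (SE 0.092, adjusted p = 6.19e-09). Among the uniporter's own parts, Micu3 was lower by -1.03 (SE 0.098, adjusted p = 2.77e-06) and Ccdc109b, the older symbol of the pore paralog Mcub, was lower by -0.56 at only 31 to 68 reads in the control libraries (adjusted p = 0.0382). Smdt1, the subunit that ties pore to gatekeepers (-0.10, adjusted p = 0.272), did not pass.

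Between PMCA and control IP, 1 of these 16 genes rose and 1 fell (median -0.098). Over all genes tested, 9.54% rose and 10.1% fell. Slc25a23, a calcium-regulated carrier of adenine nucleotides and phosphate, rose by 0.63 (SE 0.081, limma adjusted p = 0.00242), and the calcium-regulated aspartate and glutamate carrier Slc25a12 fell by 0.45 (SE 0.070, adjusted p = 0.00386). Slc25a12 was also the 1 gene of this list whose effect differed between IP and input (-0.33, SE 0.082, adjusted p = 0.0450). Micu3 (-0.21), Smdt1 (-0.18), Ccdc109b (-0.36), Mcur1 (0.22) and Slc8b1 (0.14) did not pass. Of 10 genes of contacts between endoplasmic reticulum and mitochondria, 7 were higher and 1 lower in control IP than in input, led by the fusion protein Mfn1 (2.10) and the chaperone Hspa9 (1.15), which links VDAC to the reticulum's calcium release channel. Over all genes, 39.1% were higher and 38.4% lower in control IP than in input. Between PMCA and control IP, 1 of the 10 fell, Hspa9 (-0.31, SE 0.064, limma adjusted p = 0.00969).

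General mitochondrial genes, 18 import, cristae, matrix and carrier genes that do not handle calcium, give the setting for the VDAC genes. Between PMCA and control IP, 10.1% of all 15748 genes fell, 9.54% rose and 8178 were below 0. Of the 18, 7 fell and 0 rose, with a median of -0.21, and 17 of 18 were below 0. The examples with the largest changes were the adenine nucleotide carrier Slc25a5 (-0.47, SE 0.060, limma adjusted p = 0.00243), the import proteins Timm50 (-0.37) and Tomm70a (-0.35), and the prohibitin Phb (-0.32). The median over the 6 mitochondrial channel genes was -0.17, with 2 lower. In the inputs 0 of the 18 passed, 17 of 18 were again below 0, and the median was -0.14. Over all 16306 genes in the inputs, 0.442% passed and 8436 were below 0.

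Of 13 further lysosomal channel and partner genes, 11 could be tested in IP, and 1 rose, Vac14 (0.24, SE 0.067, limma adjusted p = 0.0330), a scaffold of the enzyme complex that makes the lipid activating Mcoln1. Pikfyve, the enzyme itself (0.078), and Tfeb (0.017, adjusted p = 0.943) did not pass. The median was 0.050, and over all genes tested 9.54% rose and 10.1% fell. The relatives of Mcoln1 were scarce: Mcoln3 had 0 to 8 reads per library. Mcoln2 had 0 to 9 reads in the IP libraries, 3 to 12 in the control inputs and 13 to 32 in the PMCA inputs. The Mcoln2 input groups did not overlap, and the fitted difference of 1.61 (SE 0.43) did not pass (limma adjusted p = 0.107). Over all genes in control mice, 39.1% were higher in IP than in input and 38.4% were lower. In control mice 7 of 11 genes of this list were higher in IP and 1 lower, with Tfeb at 1.24, Hn1l (the older symbol of the two-pore channel partner Jpt2) at 1.12, the cation channel Trpm2 at -1.08 and Pikfyve at 0.42.

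In control mice, 39.1% of all 16072 genes were higher in IP than in input and 38.4% were lower. General lysosome genes were mostly higher in control IP than in input, 19 of 22 against 1 lower (median 0.63). They were led by the membrane proteins Cd63 (2.13) and Scarb2 (1.94) and the cholesterol exporter Npc1 (1.78). Tpcn1 at 2.07 was near the top of that range, and Mcoln1 at -0.098 was well below the list's median. Between PMCA and control IP, 10.1% of all 15748 genes fell, 9.54% rose and 8178 were below 0. Of the 22, 6 fell and 1 rose (median -0.13), and 18 of 22 were below 0. The largest falls were in subunits of the proton pump, Atp6v1h (-0.39, SE 0.056, limma adjusted p = 0.00323), Atp6v1a (-0.33) and Atp6v1b2 (-0.32), and Cd63 rose by 0.50 (SE 0.11, adjusted p = 0.0119). In the inputs 0 of 22 passed, 5 of 22 were below 0, and the median was 0.079. Over all 16306 genes in the inputs, 0.442% passed and 8436 were below 0. The motif printed in capitals for Mcoln1 was present in 8 of the 16 general lysosome genes with a promoter record, in 3 of 18 general mitochondrial genes and in 6.86% of 27025 genes.

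**Figure D4:**
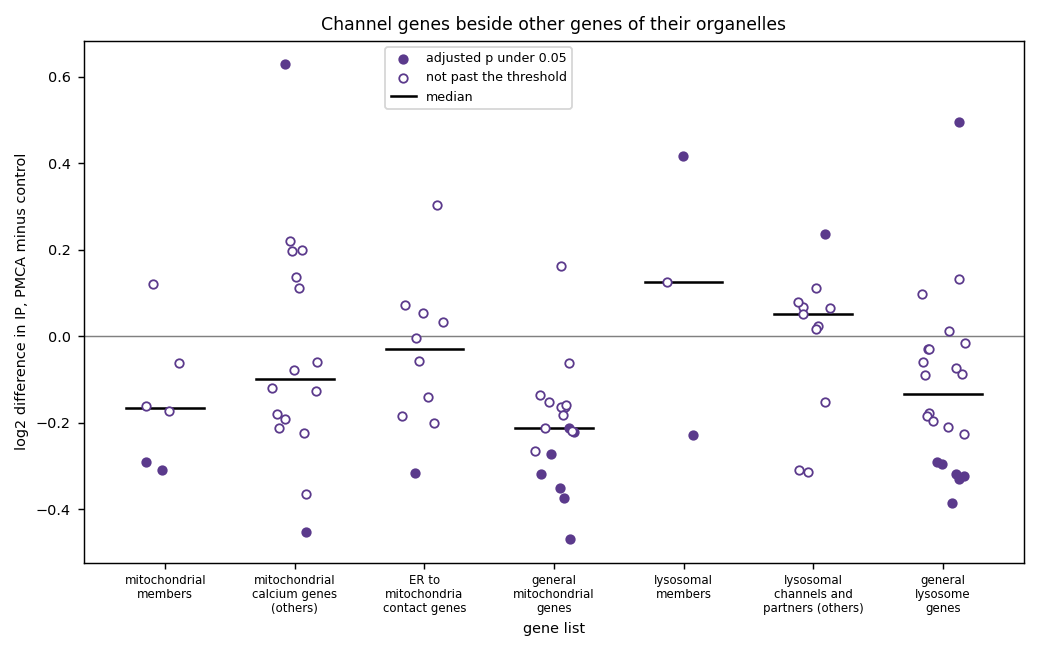
Difference between PMCA and control IP (log2, vertical axis) for the mitochondrial and lysosomal channel genes (members) beside 5 lists of other genes of their organelles; each point is a gene, filled where it passed the threshold, and the line is the median. Below 0 lie 17 of 18 general mitochondrial genes (median -0.21) and 18 of 22 general lysosome genes (median -0.13). Of all 15748 genes tested, 8178 were below 0.

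The genes whose levels followed a channel gene most closely over the 16 libraries were named by Pearson's r among 16669 genes, as a description. The libraries share a large difference between fractions, which any gene with such a difference follows. For Tpcn1 they were Plxnb1, Nwd1, Arhgef12 and Ctnnd2, each with r of 0.998, and Itsn1 (0.997). For Letm1 they were Gas6, Pdzrn3, Homer3 and Cdc42bpg (each 0.995) and Zak (0.994), and for Micu2 Optn (0.989), 1500009C09Rik (0.989), Cttn (0.988), Cand2 (0.988) and Eda (0.988).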

How the data were processed

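The authors deposited log2 CPM for each of the 16 libraries. STAR, HTSeq, edgeR and limma were used with build mm10, per the submitters' processing notes. The sources used here give no versions or settings, nor how reads shared between similar genes (such as the VDAC genes) were counted. The lowest value, -7.47, was the same in all libraries and gave an average prior count of 0.25. Undoing it returned whole reads for 100% of values (tolerance 0.001), and from these came totals and the authors' scaling factors.

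limma 3.58.1 (R 4.3.3) was fitted to the deposited log2 CPM as a two-sided test with a trend of variance on level, and p-values were adjusted by Benjamini-Hochberg over all genes tested (threshold 0.05). Genes needed 10 reads in at least 4 libraries of a comparison (at a library of median size) and 15 in all. The step was tested on simulated data with independent libraries and changes larger than most of those of the channel genes. That test does not show how well small differences are called. The channel genes and the lists were chosen with earlier results of these data known. Named are the channel genes, Rpl22, uniporter parts, Slc8b1, Mcoln2 and Mcoln3, at most 4 called genes with the largest differences per list, and the 5 genes most like Tpcn1, Letm1 and Micu2. Some genes that this rule names are not reported here. Libraries of 1 mouse deviated together (r of 0.11 to 0.33 in 8 pairs, against -0.20 to 0.078 between mice), so fits with the mouse as a replicate block were alternatives, beside other scaling, prior counts, filters, moderation, number sets and leaving out each mouse.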

Additional observations from a re-analysis of the deposited data

Results flagged for a closer look

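1 of the 36 sets of 4 libraries (9 channel genes in 4 groups) held a library that stood apart by Dixon's criterion, where chance gives about 1 in 20. It was Mcu in PMCA IP, where replicate 4 read 5.50 log2 CPM and the other 3 read 4.98, 5.0 and 5.06. No other channel gene in that library was beyond the criterion.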

How the results depend on the processing

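Between PMCA and control IP, 4 channel genes and 3088 genes passed in the reported fit; leaving out 1 mouse gave 2 to 4 and 1702 to 3606, the number set as a block with control 4 by source name gave 2 and 1699, and 1 spread over all 16 libraries gave 4691 genes. In input, where 0 channel genes and 72 genes passed, leaving out 1 mouse gave 0 to 3 and 4 to 1352. Genes passing in input were 43 without the filter, 868 and 32 with the number set as a block by title and by source name, and 47 with 1 spread. For the difference of effects, 339 genes passed, 23 to 436 without 1 mouse and 732 with the animal as a random replicate block, and 0 channel genes passed in each. With the replicate block, channel genes passing for IP over input numbered 6 (control) and 5 (PMCA), as without it. Signs turned with total reads for control Mcu (-0.12), Vdac1 (-0.27), Vdac3 (-0.11) and Tpcn2 (-0.15) and PMCA Mcu (-0.18) and Vdac3 (-0.28). Leaving out 1 mouse gave ranges across 0 for control Vdac1 (-0.015 to 0.019) and Tpcn2 (-0.048 to 0.27), PMCA Mcu (-0.0023 to 0.17) and Vdac3 (-0.027 to 0.075), Tpcn2 in IP (-0.061 to 0.24), Micu2 in input (-0.085 to 0.0099) and the difference of effects for Mcu (-0.16 to 0.015) and Letm1 (-0.076 to 0.018), none past the threshold. Letm1 in IP turned with the number set by source name (0.0047). The cause was not tested. Tpcn2 rests on the fewest reads of the 9 genes (86 to 198 per library).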
